A study of Mus musculus with 36 samples.

Results

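The comparison described here is the late course of induction in the Ikaros line: DNase-seq libraries collected at 24 h against libraries collected at 2 h, with no 0 h library involved. It takes 6 of the 36 libraries of the series, 3 at each time, and all 52788 DNase I hypersensitive sites (DHS) of the table, which are stretches of open chromatin that the enzyme DNase I cuts readily. The cells were B3, a mouse pre-B cell line, carrying an MSCV retroviral construct from which tagged Ikaros is made as a fusion to ERt2, the hormone-binding domain (HA-Ikaros-ERt2-IRES-GFP). Both groups received 0.5 uM 4-hydroxytamoxifen (4-OHT) and differ in the time label, 2 h or 24 h. The Control line, used as a reference below, carries the vector with ERt2 and GFP but no Ikaros, and received the same drug for the same times.

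Replicates 4, 5 and 6 come from batches 11, 12 and 13, each a repeat of the whole culture course, and within a batch the 2 h and 24 h flasks were harvested together. They are repeated cultures of 1 transduced line, sorted for GFP, so they sample the line and not animals. The protocol text of every label gives 2 h of drug whatever the time label says, and the time label and the study's methods were followed.

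Ikaros is a zinc finger transcription factor that B cell progenitors need to leave the cycling, large pre-B stage. It binds DNA at sites with the core GGGAA and acts with chromatin remodelling complexes, and it is known to lower Myc and surrogate light chain expression and to favour exit from the cell cycle. The fusion protein stays in the cytoplasm until 4-OHT lets it enter the nucleus, so the 2 h libraries already hold nuclear Ikaros.

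No single DHS changed between 2 h and 24 h past the threshold. What the libraries did show was a small, broad tilt: DHS poor in G and C, mostly in introns and between genes, had slightly higher values at 24 h, and GC-rich promoter DHS slightly lower values. Among gene groups, all 26 promoter DHS of glycolysis genes and all 19 of immediate early genes had lower means at 24 h, where 74.3% of all promoter DHS did, and with smooth trends in GC content, width and level taken out the medians of these groups were -0.08 and -0.03 on the log2 scale. The promoter DHS of Myc, the growth regulator, read lower in all 3 libraries. Each of these differences was well under 1.5-fold.

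The sequences of 6 of the DHS described below are given first, and none of them passed the threshold. The DHS in the Nsun7 intron (GRCm38, chr5:66263482-66263622) had the smallest p among DHS higher at 24 h, and those near Fgd2 (central 200 bases, chr17:29398148-29398347) and at the Zfp219 promoter (chr14:52020062-52020195) the smallest p among those lower at 24 h. The promoter DHS of Myc (central 200 bases, chr15:61985352-61985551), Gapdh (chr6:125166531-125166661) and Igll1 (central 200 bases, chr16:16864046-16864245) belong to the gene groups described later. The strand is the + strand of the RefSeq assembly GRCm38.p6, also called mm10, and capitals mark GGGAA or its reverse complement TTCCC.
Nsun7: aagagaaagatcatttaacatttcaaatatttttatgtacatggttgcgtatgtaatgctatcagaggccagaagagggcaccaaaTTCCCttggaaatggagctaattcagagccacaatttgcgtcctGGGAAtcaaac
Fgd2: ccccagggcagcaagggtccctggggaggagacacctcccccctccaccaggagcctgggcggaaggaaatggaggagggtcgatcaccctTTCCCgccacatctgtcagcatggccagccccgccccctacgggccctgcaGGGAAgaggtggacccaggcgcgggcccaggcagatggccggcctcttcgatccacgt
Zfp219: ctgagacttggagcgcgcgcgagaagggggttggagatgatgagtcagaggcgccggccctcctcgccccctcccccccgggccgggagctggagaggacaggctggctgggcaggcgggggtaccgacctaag
Myc: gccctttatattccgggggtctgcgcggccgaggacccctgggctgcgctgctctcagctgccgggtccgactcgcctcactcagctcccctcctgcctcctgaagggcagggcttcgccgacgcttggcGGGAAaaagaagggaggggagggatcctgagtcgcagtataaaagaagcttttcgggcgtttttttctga
Gapdh: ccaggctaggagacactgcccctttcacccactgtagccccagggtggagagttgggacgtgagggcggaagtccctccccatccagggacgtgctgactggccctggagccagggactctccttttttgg
Igll1: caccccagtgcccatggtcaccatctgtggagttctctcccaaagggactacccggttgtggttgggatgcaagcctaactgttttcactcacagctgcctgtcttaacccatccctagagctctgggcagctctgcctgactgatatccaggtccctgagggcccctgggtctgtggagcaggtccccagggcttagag
G and C make up 39.0% of the Nsun7 DHS, 60.5% of the whole Fgd2 DHS, 71.6% of the Zfp219 DHS, 63.1% of the Myc DHS, 63.4% of the Gapdh DHS and 52.2% of the Igll1 DHS, against a median of 50% over all DHS. The core occurs in the printed letters of the Nsun7, Fgd2 and Myc DHS and not in those of the other 3, and a match is a description of letters and not of binding. GC content varied among the 6 DHS of smallest p higher at 24 h. It was 39.0% (Nsun7), 48.3% (4930545L08Rik), 47.3% (Uap1), 55.9% (Sorl1), 35.2% (Olfr823) and 36.8% (Ppp1r3a).

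Values are on a log2 scale of read density that the authors normalised and then corrected for noise, so that a difference of 1 is 2-fold, and the depth behind each value is unknown. The SD between replicates of a DHS had a mean over DHS of 0.24 at 2 h and 0.25 at 24 h in the Ikaros line, against 0.48 and 0.32 in the Control line. Libraries of the same time correlated across DHS with a median r of 0.817 (6 pairs, 0.809 to 0.868), and libraries of different times with a median of 0.851 (9 pairs, 0.827 to 0.893), so that libraries of the same time were, on the median, no more alike than libraries of different times. All libraries share the authors' normalisation and correction, and the correlations are a description.

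The correction bears on this comparison more than on most. The 12 group means of the table span 6 of 11 possible dimensions, and of the squared weight of the contrast between Ikaros 24 h and 2 h only 6.54% lies in them, against 64.6% for the same contrast in Control, 70.3% for Ikaros 24 h against 0 h and 36.6% for Ikaros 2 h against 0 h. For the times between, against Ikaros 2 h, the share was 1.40% at 6 h, 9.07% at 12 h and 1.99% at 18 h. A difference outside the kept dimensions cannot show in the table. Whether accessibility changed little after 2 h or the correction removed what changed cannot be told apart from these values.

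Across the genome, the change from 2 h to 24 h in the Ikaros line had a median of 0.02 and an SD of 0.18 over DHS, and 95% of DHS lay between -0.26 and 0.45. The extremes were -0.81 and 1.05. In all, 405 DHS (0.767%) differed by over 1.5-fold, 397 of them higher and 8 lower at 24 h, and 2 differed by over 2-fold. Limma called 0 of 52788 DHS (0%) at an adjusted p under 0.05, the smallest adjusted p being 1.00. At an unadjusted p under 0.05, 1022 DHS were higher (1.94%) and 195 lower (0.369%), 1217 in all or 2.31%, which is fewer than the 5% that evenly spread p-values give. Without regard to size, all 24 h values lay above all 2 h values at 2222 DHS (4.21%) and below them at 1415 DHS (2.68%).

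The fit also bounds what could have been missed. The SE of a change had a median of 0.20, and its 95% interval reached a median of 0.42 to either side on the log2 scale. That interval lay within 2-fold in either direction at 50559 DHS (95.8%), and within 1.5-fold at 30079 DHS (57.0%). The bounds hold for the corrected values only.

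**Figure D1:**
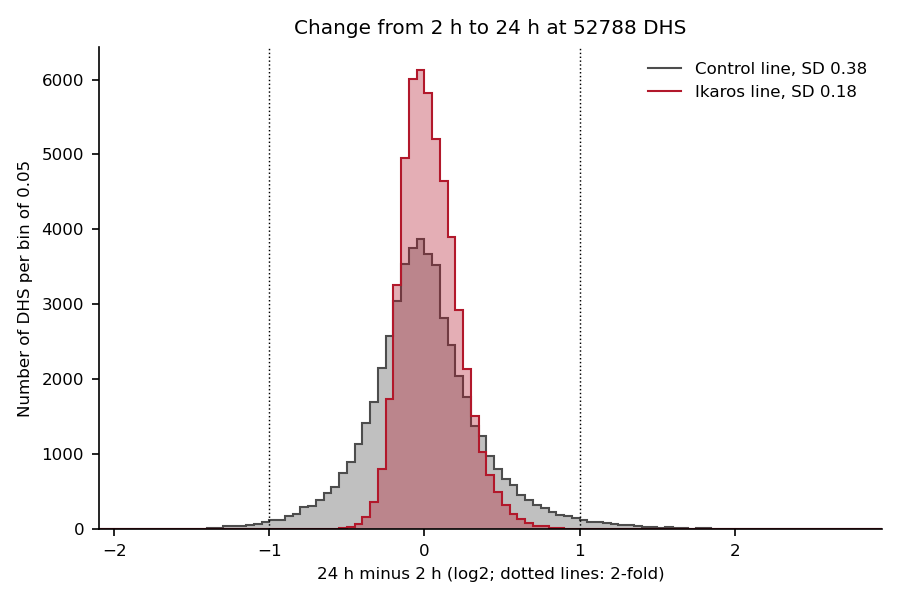
Number of DHS (vertical axis, bins of 0.05) by change from 2 h to 24 h (horizontal axis, log2) in the Ikaros line (red) and the Control line (grey), with dotted lines at 2-fold. The Ikaros changes are narrower, with an SD of 0.18 against 0.38 and 2 DHS past 2-fold against 1198.

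Between the same times the Control line had changes with an SD of 0.38, and since 64.6% of its contrast lies in the kept dimensions against 6.54% in the Ikaros line, a difference in size between the lines and the reach of the correction cannot be told apart. In Control, 1198 DHS differed by over 2-fold, 797 higher and 401 lower. All 24 h values lay above all 2 h values at 2.86% of DHS and below at 5.09%. Limma called 1 DHS (0.00189%), an intergenic site 2106 bp from the start of Oxt, the oxytocin gene (chr2:130578279-130578409). Its Control values were 3.59, 3.57 and 3.27 at 2 h and 5.02, 4.93 and 5.33 at 24 h, a change of 1.62 ± 0.20 (SE; limma adjusted p = 0.0295). The call was lost, with limma calling 0 DHS, under the replicate block (smallest adjusted p = 0.194), with no intensity trend (0.152), with quantile normalisation (0.0901), with only the libraries of the contrast (1.00) and without any 1 of the 24 h libraries or replicate 4 at 2 h. In the Ikaros line the same DHS read 4.30, 4.05 and 4.49 at 2 h and 4.33, 4.16 and 4.09 at 24 h, and the groups overlapped. The difference between the lines in their change was called at 0 DHS (0%), with a smallest limma adjusted p of 0.239, which belongs to this Oxt site, and 2009 DHS (3.81%) had an unadjusted p under 0.05.

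The 2 h and 24 h groups are the ends of a course of 5 times, and a linear trend over hours was fitted to all 15 Ikaros libraries from 2 h to 24 h. It called 0 DHS (0%; smallest limma adjusted p = 0.942), with 2290 DHS (4.34%) at an unadjusted p under 0.05. Against 2 h, the changes had an SD over DHS of 0.08 for the 6 h libraries, 0.21 for those of 12 h, 0.08 for those of 18 h and 0.18 for those of 24 h. These SDs follow the order of the shares of each contrast in the kept dimensions, apart from 6 h and 18 h, whose SDs are equal to 2 decimals, so the shape of the course and the correction cannot be told apart. The 4 comparisons share the 2 h libraries. Of the variance between the 5 Ikaros group means, 89.0% lay along a single component and 10.4% along the next.

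DHS at the top of the list by unadjusted p are described below as values, since none passed the threshold and each had an adjusted p of 1.00. The 6 of smallest p among DHS higher at 24 h lay in introns or between genes. In the Nsun7 DHS, in an intron 3170 bp from the start of this gene of the RNA methyltransferase family, the 2 h libraries read 3.87, 4.24 and 4.13 and the 24 h libraries 5.28, 4.94 and 4.71. All 24 h values lay above all 2 h values, and the change was 0.90 ± 0.17 (SE; 95% interval 0.55 to 1.25). In Control this DHS changed by 0.29 ± 0.52.

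The next DHS, in an intron of 4930545L08Rik (chr9:111917317-111917459), a transcript known by its clone name, read 3.81, 4.20 and 3.63 at 2 h and 4.80, 4.70 and 4.69 at 24 h. Its groups did not overlap, and the change was 0.85 ± 0.17 (SE). An intergenic DHS 10303 bp from the start of Uap1, which makes the sugar donor UDP-N-acetylglucosamine (chr1:170185260-170185390), read 3.27, 3.87 and 3.90 at 2 h and 4.50, 4.55 and 4.77 at 24 h, a change of 0.93 ± 0.19. The lowest 24 h value exceeded the highest 2 h value by more than the whole range of the 24 h values.

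A DHS in an intron of Sorl1, which encodes a sorting receptor of endosomes (chr9:42028875-42029035, shared with the transcript Gm16214), read 3.76, 4.00 and 3.98 at 2 h and 4.77, 4.68 and 4.82 at 24 h. Its change was 0.85 ± 0.18 (SE), while Control changed by -0.64 ± 0.34. An intergenic DHS 16419 bp from the olfactory receptor gene Olfr823 (chr10:130096228-130096369) changed by 0.77 ± 0.17. An intergenic DHS 169203 bp from Ppp1r3a, a glycogen-targeting subunit of protein phosphatase 1 (chr6:14585936-14586071), changed by 0.85 ± 0.20. In both, all 24 h values again lay above all 2 h values.

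The 2 DHS past 2-fold, named after their values were seen, had less precise values. The intergenic DHS 112614 bp from Pla2g4a, a cytosolic phospholipase A2 (chr1:149809686-149809825), read 4.01, 2.90 and 3.22 at 2 h and 4.19, 4.35 and 4.63 at 24 h, a change of 1.02 ± 0.27 (SE). The intergenic DHS 171697 bp from Pgr15l, a G protein-coupled receptor gene (chrX:96900769-96900899), read 3.38, 2.96 and 1.94 at 2 h and 4.16, 3.69 and 3.57 at 24 h, a change of 1.05 ± 0.42. Replicate 6 at 2 h stood far below the other libraries in the Pgr15l DHS, and the interval of its change ran from 0.16 to 1.94.

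The 6 DHS of smallest p among those lower at 24 h changed less and were more GC-rich. The DHS 29018 bp from Fgd2, an exchange factor for the small GTPase Cdc42 (chr17:29397985-29398511), read 4.96, 5.21 and 5.02 at 2 h and 4.51, 4.57 and 4.75 at 24 h, a change of -0.45 ± 0.12 (SE). The promoter DHS of the zinc finger gene Zfp219, shared with Gm49086, read 5.04, 4.96 and 4.88 at 2 h and 4.30, 4.37 and 4.41 at 24 h, a change of -0.60 ± 0.17. The lowest 2 h value of the Zfp219 DHS stood well above its highest 24 h value. A DHS 58312 bp from Cxxc5, a CXXC zinc finger gene, read 4.25, 4.36 and 4.53 at 2 h and 3.79, 4.01 and 3.73 at 24 h, a change of -0.54 ± 0.15.

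The remaining 3 lay in an intron of Exoc3l2, a relative of an exocyst subunit (chr7:19472285-19472802; -0.47 ± 0.13 SE), 29796 bp from the co-chaperone gene Dnajb12 (chr10:59909422-59910014; -0.43 ± 0.12) and in an intron of Ppp1r18, an actin-binding phosphatase 1 subunit (chr17:35870222-35870431; -0.52 ± 0.15). In each, all 24 h values lay below all 2 h values. Control changed by between -0.26 and 0.24 at these 6 DHS, and none of the 12 DHS differed between the lines past the threshold. At the times between, the means of the Nsun7 DHS were 3.76 at 6 h, 5.12 at 12 h and 4.33 at 18 h, and those of the Zfp219 DHS 5.08, 4.34 and 4.74, an order that DHS largely share because the group means lie mostly along a single component.

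**Figure D2:**
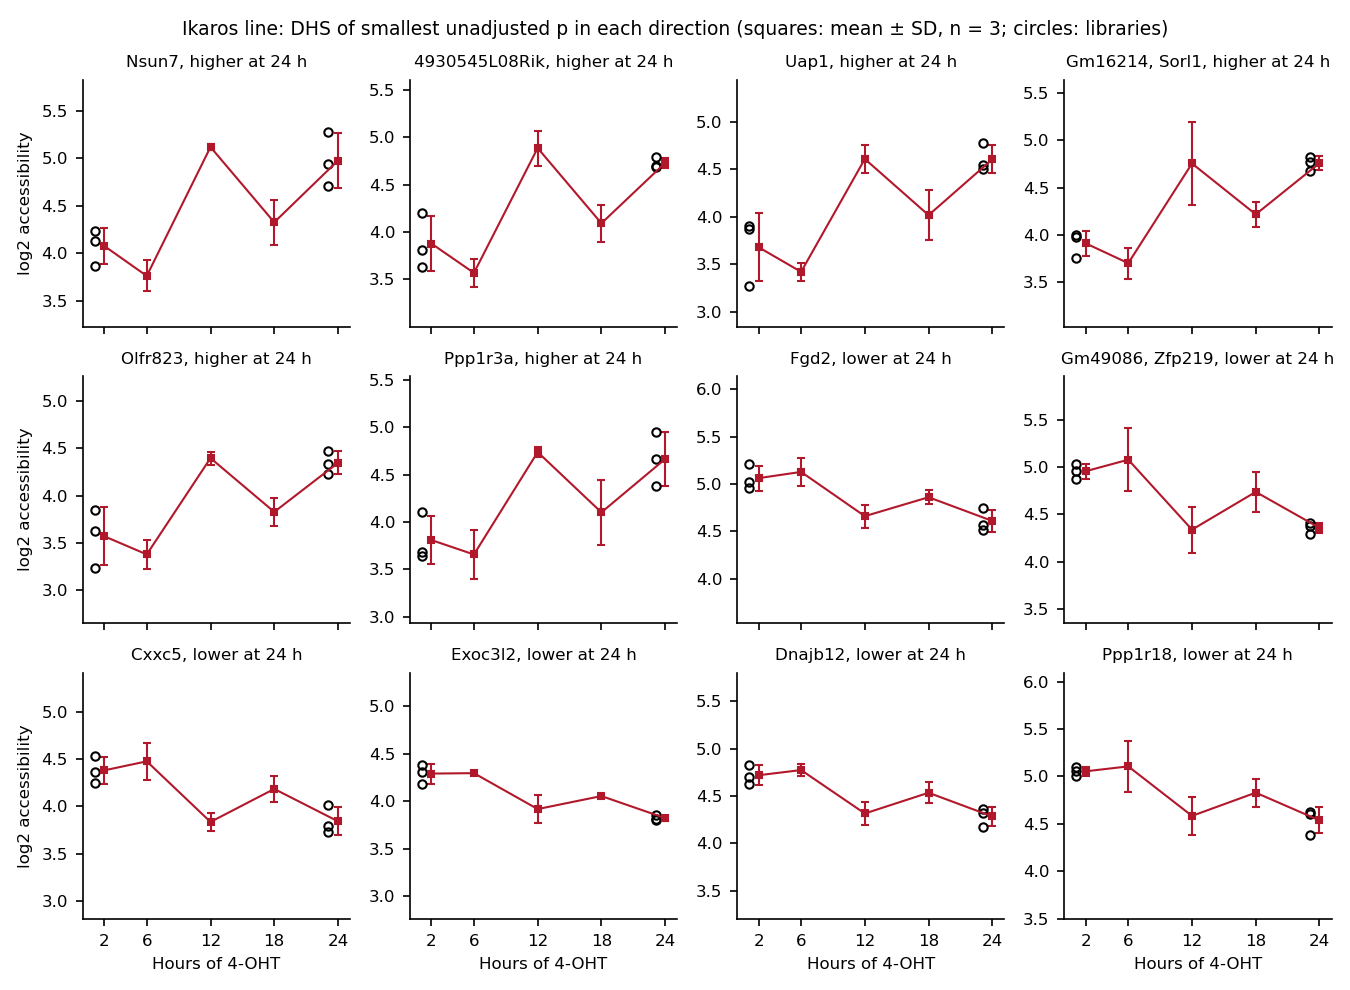
Log2 accessibility (vertical axis, a span of 2.6 in every panel) against hours of 4-OHT (horizontal axis) in the Ikaros line for the 6 DHS of smallest unadjusted p in each direction, titled by the gene they lie in or nearest to. Squares with bars are means ± SD of 3 libraries and circles the libraries at 2 h and 24 h. The Nsun7 means run from 3.76 at 6 h to 5.12 at 12 h, and the order of the times is largely shared by DHS because 89.0% of the variance between the 5 group means lies along a single component.

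By position, the small changes differed in sign. Promoter DHS are those with an annotated transcription start site (TSS) no more than 1000 bp away, and the other DHS are called distal. The 13657 promoter DHS had a median change of -0.07, with 25.7% of them higher at 24 h, while the medians were 0.04 for 3044 exon DHS, 0.07 for 18699 intron DHS and 0.07 for 17388 intergenic DHS. Of promoter DHS, 0.989% had all 24 h values above and 6.45% all below the 2 h values, against 5.33% and 1.36% of distal DHS. Broad promoter DHS, over 200 bp wide, had a median of -0.08 and narrow ones -0.03.

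The contrast between promoter and distal DHS is the value the tilt rests on. The median promoter value minus the median distal value was 0.687, 0.723 and 0.794 in the 2 h libraries and 0.619, 0.572 and 0.532 in the 24 h libraries. The groups did not overlap, and the mean went from 0.735 ± 0.054 (SD, n = 3) to 0.574 ± 0.044, a change of -0.16 with an exact permutation p of 0.1, two-sided, the smallest that 3 against 3 libraries allow. Within batches the change was -0.07, -0.15 and -0.26. With smooth trends of the changes in GC content, width and level taken out, it was -0.01 (exact permutation p = 0.4). In Control the mean went from 0.779 to 0.760, a change of -0.02, with libraries on both sides (exact permutation p = 0.9). Over the 4 such tests run in both lines, the adjusted p in the Ikaros line was 0.2 (exact permutation tests, Benjamini-Hochberg). At the other times the Ikaros means were 0.801 at 6 h, 0.534 at 12 h and 0.707 at 18 h.

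**Figure D3:**
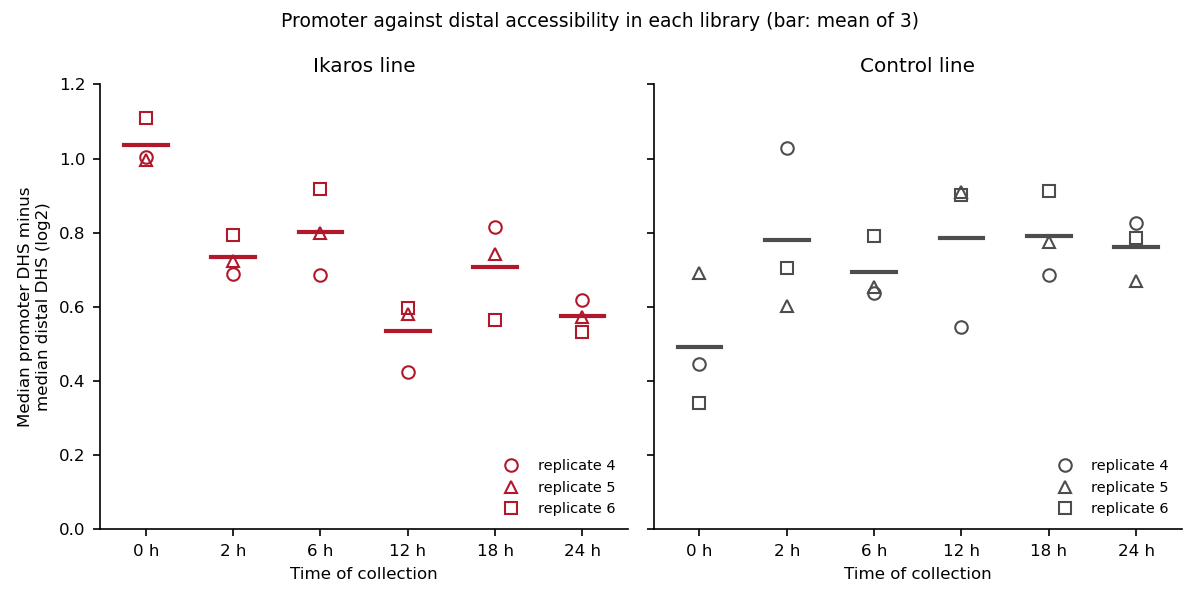
Median of promoter DHS minus median of distal DHS in each library (vertical axis, log2) by time of collection (horizontal axis), with a symbol for each replicate number and a bar at the mean of 3. In the Ikaros line the 24 h libraries (0.532 to 0.619) lie below all 2 h libraries (0.687 to 0.794), while the Control libraries of these times overlap.

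Base composition ordered the changes more finely than position. The DHS were split into 5 classes of like size by GC content, at 43.6%, 48.0%, 51.9% and 57.5%. The median change ran from 0.16 in the GC-poorest class through 0.08, 0.04 and -0.02 to -0.10 in the GC-richest. Within promoters, the GC-poorest class had a median of 0.10 (752 DHS) and the GC-richest -0.10 (7747 DHS), and within distal DHS the same classes had 0.16 (9805 DHS) and -0.06 (2816 DHS), so the sign followed GC content in both classes.

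Batch by batch, the GC-poorest class changed by a median of 0.14, 0.21 and 0.14 in the Ikaros line and the GC-richest by -0.04, -0.10 and -0.14. The median of the GC-poorest class minus that of the GC-richest went from -0.926 ± 0.127 (SD, n = 3) to -0.653 ± 0.093, a change of 0.27 (exact permutation p = 0.1, two-sided, the smallest possible; adjusted 0.2). In Control it changed by -0.10 (exact permutation p = 0.6), with a positive change in replicate 4 and negative ones in replicates 5 and 6. GC content also governs how fragments amplify and sequence, and its part in the tilt was not tested. With smooth trends of the changes in GC content, width and level taken out, the medians of all 4 position classes came to 0.00. Within promoters, narrow DHS then had a median of -0.05 and broad ones 0.01.

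**Figure D4:**
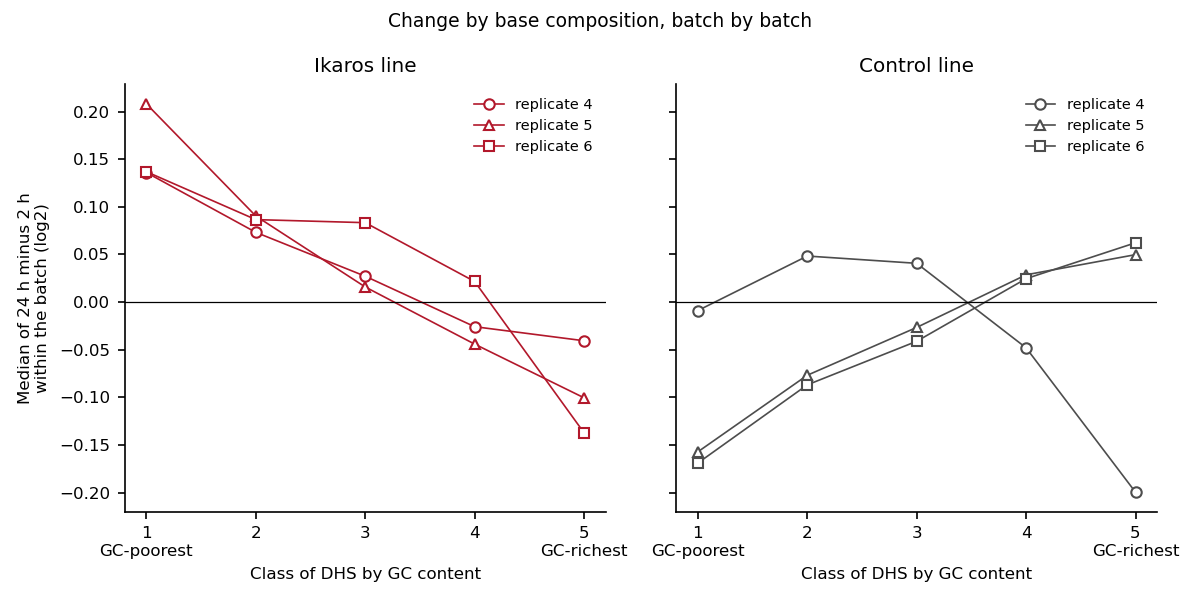
Median change from 2 h to 24 h within each batch (vertical axis, log2) by class of DHS ordered by GC content (horizontal axis) for the Ikaros line (left) and the Control line (right). All 3 Ikaros batches slope down, from 0.14 to 0.21 in the GC-poorest class to between -0.04 and -0.14 in the GC-richest, and the Control batches differ in direction.

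Several short motifs were counted in the central 100 bp of each DHS, on both strands. The Ikaros core GGGAA occurs there in 27.2% of all DHS, the core GGAAGT of ETS factors, which can share bases with GGGAA, in 15%, the GC box GGGCGG in 11.3%, the forkhead motif TGTTTAC in 0.989% and the E box CACGTG in 3.48%. Promoter DHS with GGGAA had a median change of -0.09 and those without -0.07, and distal DHS with GGGAA 0.04 and those without 0.08. Promoter DHS with the GC box had -0.10 and those without -0.06. Distal DHS with the forkhead motif had 0.11 and those without 0.07. After the trends were taken out, every one of these medians lay between -0.03 and 0.02. Among the 397 DHS higher by over 1.5-fold, 15.9% held GGGAA against 27.2% of all DHS, 5.54% were promoters against 25.9%, and 95.2% were at most 200 bp wide against 46.1%, with a median GC content of 40.2% against 50%. These DHS were chosen by their change, so the shares are a description.

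The gene groups below are promoter DHS of fixed lists, and each count is to be read against the 13657 promoter DHS as a whole, of which 74.3% had lower means at 24 h and 1.08% an unadjusted p under 0.05. Once the trends were taken out, 49.2% of all promoter DHS were lower, with a median of 0.00. List counts given after that step are to be read against this share. Limma called 0 DHS of every list (0% of all DHS). The identity of the cells was read first. Promoter DHS were found for 8 pre-B cell markers, with medians of 4.97 to 5.14 over the 2 h libraries and 4.77 to 4.99 over the 24 h libraries. Of 11 T cell markers 3 had one, of 10 myeloid markers 1 (Lyz2) and of 10 erythroid and fibroblast markers 2 (Klf1 and Col1a1), and their medians lay between 3.39 and 4.35 in these libraries. The T cell receptor genes Cd3e, Cd3d and Cd3g and the myeloid genes Itgam, Mpo and Elane had none. The list medians changed by -0.06 for pre-B, -0.15 for T cell, 0.22 for myeloid (1 DHS) and -0.06 for erythroid and fibroblast markers, and their part in the other results was not tested. With the trends taken out the medians were 0.03 for pre-B, -0.14 for T cell, 0.13 for myeloid and 0.02 for erythroid and fibroblast markers.

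The surrogate light chain pairs with the heavy chain in the pre-B cell receptor, and its genes are known targets of Ikaros. Of the 17 promoter DHS of 11 genes for the surrogate light chain and pre-B receptor signalling, 15 had lower means at 24 h, with a median of -0.10. When the trends were taken out, 12 of 17 were lower and the median was -0.06. The promoter DHS of Igll1, which encodes the lambda5 chain (chr16:16863839-16864453), read 4.86, 5.14 and 5.08 at 2 h and 4.99, 4.61 and 4.68 at 24 h. Replicate 4 did not share the difference, the groups overlapped, and the change was -0.26 ± 0.13 (SE; 95% interval -0.52 to 0.00). The DHS of Vpreb2 (chr16:17980031-17980531), its partner, read 3.56, 3.80 and 3.60 at 2 h and 3.24, 3.44 and 3.50 at 24 h. All 24 h values were lower, and the change was -0.26 ± 0.17 (SE), with the same value of -0.26 in Control. Vpreb1 (chr16:16869321-16869433) changed by -0.24 ± 0.21 with overlapping groups.

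B-lineage transcription factors set the identity of the cells. Of their 27 promoter DHS from 16 genes, 24 had lower means at 24 h, with a median of -0.07, equal to that of all promoter DHS. Without the trends, 15 of 27 were lower and the median was -0.01. Pax5, which holds cells to the B lineage (chr4:44710639-44710895), read 5.77, 5.66 and 5.38 at 2 h and 5.32, 5.32 and 5.39 at 24 h, a change of -0.26 ± 0.13 (SE). Replicate 6 was flat, and the groups overlapped. Irf8, an interferon regulatory factor of B and myeloid cells (chr8:120736008-120736508), read 4.12, 4.36 and 4.25 at 2 h and 4.11, 4.00 and 3.92 at 24 h, a change of -0.23 ± 0.15. Ebf1, the factor that opens B cell genes (chr11:44616968-44617510), changed by -0.05 ± 0.11, and its 95% interval from -0.28 to 0.17 held any change of the corrected values to under 1.5-fold. Of the Ikaros family, Ikzf5 alone had a promoter DHS (chr7:131410315-131410874), which read between 4.88 and 5.10 at 2 h and between 4.87 and 5.05 at 24 h.

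The interleukin 7 receptor drives the growth of early B cell progenitors. All 13 genes of its list had a promoter DHS, and 18 of 20 DHS had lower means at 24 h, with a median of -0.11. The median was -0.07 with the trends taken out, with 11 of 20 lower. Socs2, a feedback inhibitor of cytokine signalling (chr10:95416660-95417183), read 4.43, 4.31 and 4.57 at 2 h and 3.96, 3.95 and 4.32 at 24 h, a change of -0.36 ± 0.18 (SE) with groups that just overlapped. Cish, a relative of it (chr9:107296321-107296984), changed by -0.25 ± 0.16. In Control these DHS changed by 0.02 and -0.14.

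The recombination and end joining list, with the genes that cut and rejoin immunoglobulin DNA, held the highest single value of all lists. Its 9 DHS had a median of -0.02, with 3 higher and 6 lower. A DHS of 85 bp at Lig4, the DNA ligase of end joining (chr8:9975413-9975498), read 4.57, 4.78 and 5.22 at 2 h and 5.65, 5.79 and 4.81 at 24 h. Replicate 6 went the other way, the groups overlapped, and the change was 0.56 ± 0.25 (SE; 95% interval 0.03 to 1.08). The other promoter DHS of Lig4, shared with Abhd13, both changed by -0.02 ± 0.13. Xrcc6, the Ku70 subunit that binds broken ends (chr15:82027664-82028245), read 4.94, 4.92 and 4.92 at 2 h and 5.43, 5.25 and 4.87 at 24 h, a change of 0.26 ± 0.15. Rag1, a subunit of the recombinase (chr2:101649539-101649709), changed by 0.17 ± 0.21. With the trends taken out the median of this list turned to 0.08, with 2 of 9 lower.

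Myc and the genes of ribosome production serve growth. The Myc promoter DHS (chr15:61985170-61985735) read 4.66, 4.70 and 4.79 at 2 h and 4.33, 4.47 and 4.50 at 24 h. All 24 h values lay below all 2 h values, and the change was -0.29 ± 0.12 (SE; 95% interval -0.54 to -0.03; limma adjusted p = 1.00). Control changed by -0.12, and the difference between the lines was not called. With the trends taken out the Myc change was -0.17. The Myc DHS read 4.76 at 6 h, 4.46 at 12 h and 4.59 at 18 h. Of the 16 DHS of the list 14 had lower means, with a median of -0.07 that turned to 0.02 with the trends taken out. Npm1, a nucleolar chaperone (chr11:33162945-33163458), changed by -0.16 ± 0.12.

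The glycolysis list holds the enzymes from hexokinase to lactate dehydrogenase with the glucose and lactate carriers, and 16 of its 17 genes had a promoter DHS. All 26 DHS had lower means at 24 h, where 74.3% of all promoter DHS did, and their median change was -0.19. The median over the 26 DHS was 4.83, 4.82 and 4.94 in the 2 h libraries and 4.67, 4.65 and 4.66 in the 24 h libraries, so the libraries of the times did not overlap. In Control 8 of the 26 were lower, with a median of 0.06. With the trends taken out 23 of 26 were lower, and the median came to -0.08. Without replicate 6, and with the trends left in, the median was -0.13, against -0.19 with all replicates.

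Among its members, the narrow Gapdh DHS printed above read 5.01, 4.82 and 5.21 at 2 h and 4.47, 4.53 and 4.82 at 24 h. Gapdh encodes the dehydrogenase in the middle of the pathway. The highest 24 h value and the lowest 2 h value were equal to 2 decimals, and the change was -0.41 ± 0.18 (SE; 95% interval -0.79 to -0.03). Eno1, an enolase (chr4:150236396-150237399), read 4.83, 4.98 and 5.01 at 2 h and 4.73, 4.79 and 4.49 at 24 h, a change of -0.27 ± 0.13. Aldoa, an aldolase (chr7:126799000-126799553), changed by -0.26 ± 0.15, and Slc2a1, the glucose carrier Glut1 (chr4:119108347-119109048), by -0.24 ± 0.12, both without overlap. The DHS of Hk2, hexokinase 2, changed by -0.14 ± 0.13 and -0.24 ± 0.23, and those of Ldha, lactate dehydrogenase A, by -0.18 ± 0.16 and -0.09 ± 0.17, all with overlapping groups.

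Of 13 DHS for amino acid and nutrient uptake, 12 had lower means, with a median of -0.14. This became 9 of 13, with a median of -0.08, when the trends were taken out. Slc3a2, the heavy chain of amino acid exchangers (chr19:8713130-8713643), read 4.48, 4.56 and 4.73 at 2 h and 4.16, 4.49 and 4.26 at 24 h, a change of -0.28 ± 0.13 (SE). Slc7a5, its light chain partner (chr8:121907449-121908191), changed by -0.19 ± 0.14. In Control these DHS changed by -0.08 and 0.06.

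Genes of cell cycle entry and of growth arrest both had medians below that of no change before the trends were taken out. Of 21 DHS for cell cycle entry 20 had lower means, with a median of -0.18. That median was -0.06 with the trends taken out, with 15 of 21 lower. With the trends left in, it was -0.08 without replicate 6, against -0.18 with all replicates. A narrow DHS of E2f3, a factor that drives S phase genes (chr13:29984405-29984491), read 5.42, 5.40 and 5.39 at 2 h and 5.25, 4.87 and 5.02 at 24 h, a change of -0.36 ± 0.13 (SE), while the broad E2f3 DHS nearby changed by -0.13 ± 0.15. Cdk1, the mitotic kinase (chr10:69352721-69353262), changed by -0.22 ± 0.13 without overlap, and by -0.20 in Control. Of 15 DHS for growth arrest and quiescence 14 had lower means, with a median of -0.08 that turned to 0.02 with the trends taken out. Cdkn1a, the inhibitor p21 (chr17:29093607-29093795), read 5.56, 5.45 and 5.85 at 2 h and 5.32, 5.12 and 5.29 at 24 h, a change of -0.37 ± 0.16. Btg1, an antiproliferative gene (chr10:96616506-96617175), changed by -0.14 ± 0.13.

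Immediate early genes answer growth signals within minutes. All 19 of their promoter DHS, from 12 of 13 genes, had lower means at 24 h, with a median of -0.17, against a Control median of 0.03 with 8 lower. The list median was 5.02, 4.99 and 5.18 in the 2 h libraries and 5.09, 4.91 and 4.86 in the 24 h libraries, which overlap. A DHS at Egr1, a zinc finger factor of this class, read 5.54, 5.26 and 5.18 at 2 h and 5.09, 4.91 and 4.90 at 24 h, a change of -0.36 ± 0.12 (SE; 95% interval -0.62 to -0.10). Atf3, a stress-induced factor (chr1:191183072-191183712), changed by -0.22 ± 0.13. With the trends taken out 17 of 19 were lower, with a median of -0.03. With the trends left in, the median of -0.17 became -0.07 without replicate 6 and -0.08 without its 24 h library alone.

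Migration and adhesion genes had 11 DHS with 8 lower and a median of -0.11. Taking the trends out left 10 of 11 lower, with a median of -0.06. Icam1, an integrin ligand (chr9:21015880-21016036), changed by -0.29 ± 0.18 (SE), and Itga4, an integrin chain (chr2:79254566-79255723), by -0.20 ± 0.13. The 7 genes that the study followed by RT-PCR had 11 promoter DHS, 10 with lower means, and a median of -0.14 that was -0.04 with the trends taken out, with 8 of 11 lower. The list mixes genes known to be lowered by Ikaros, such as Igll1 and Myc, with genes known to be raised, Foxo1 and Lig4, and it was picked in this system, so a shared direction is neither a like response nor independent evidence. Igll1, Myc, Lig4, Hk2, Ldha and Slc7a5 are given above, and the Foxo1 DHS (chr3:52268221-52268387), at the gene of a forkhead factor of quiescence, changed by -0.13 ± 0.19. The study titrated DNase I on promoters it gives as hypersensitive (Ap2a1, Ikzf1 and Igll1) and as inaccessible (Myog and Myod). Of the hypersensitive ones, Ap2a1, an adaptor subunit of vesicles (chr7:44929377-44930058), changed by -0.07 ± 0.17, and Ikzf1 had no promoter DHS in the table. The inaccessible loci Myod1 and Myog had none either.

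**Figure D5:**
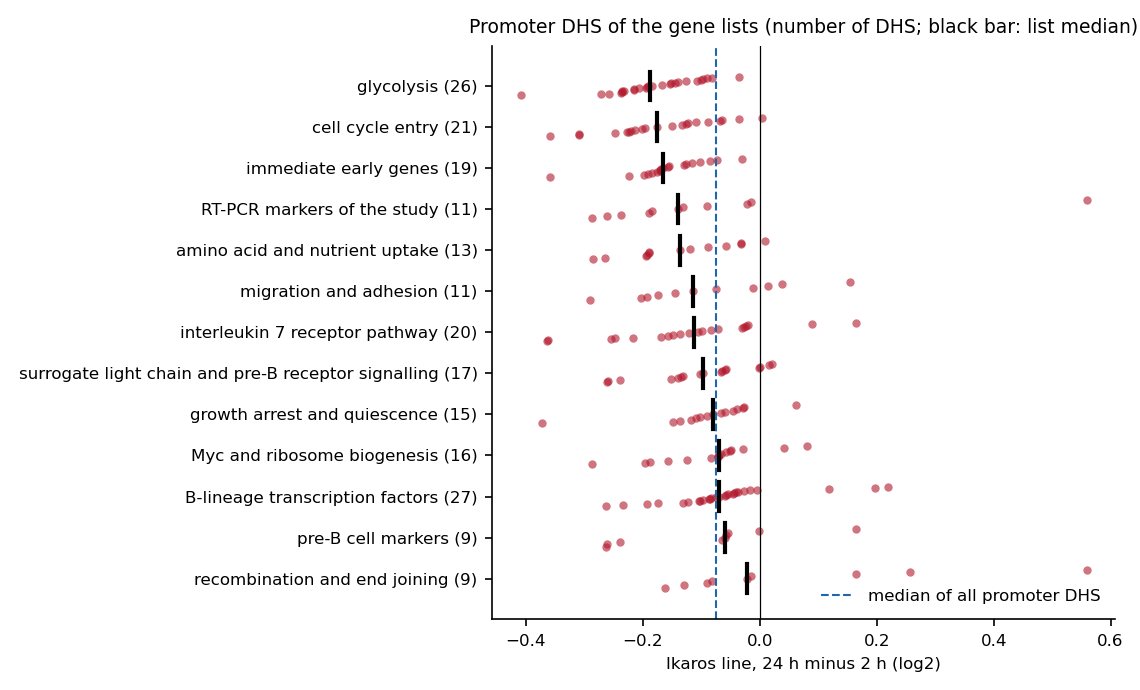
Change from 2 h to 24 h in the Ikaros line (horizontal axis, log2) of each promoter DHS in the gene lists with 5 or more DHS (rows, with the number of DHS), with a black bar at the list median and a dashed line at the median of all promoter DHS (-0.07). The medians of glycolysis (-0.19), cell cycle entry (-0.18) and immediate early genes (-0.17) come to -0.08, -0.06 and -0.03 with the trends taken out, and the point furthest to the right is the narrow Lig4 DHS at 0.56. Those of nutrient uptake, interleukin 7 receptor, surrogate light chain and migration genes then come to -0.08, -0.07, -0.06 and -0.06.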

How the data were processed

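DNase-seq was measured in 36 libraries of B3 cells, and the 6 Ikaros libraries of 2 h and 24 h were compared. Per the labels and the study's methods, the authors used Bowtie2 to align reads to mm10, called peaks of narrow and broad type per replicate with HOMER, kept peaks shared by the replicates of a time, merged them to a consensus list, counted reads with bedtools, filtered low DHS, scaled by RPKM with TMM and ran ARSyN, a correction that models the groups and takes out structured noise. The deposited values are log2 values of the result. Depths of single libraries are not given in the sources used here, so no counting interval is given, and the number of libraries limits the precision. Starts may count from 0 or from 1, a difference of 1 bp.

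DHS were annotated with GENCODE vM21 basic on GRCm38. Limma 3.58.1 under R 4.3.3 (lmFit, eBayes with an intensity trend) fitted 5 group means in the 15 Ikaros libraries from 2 h to 24 h, the same in 15 Control libraries, the change of the difference between lines in 30 libraries, and a linear trend over hours. The 5 Ikaros groups from 2 h on were fitted together because earlier results of these data gave them a like replicate spread. The 0 h libraries, which spread more there and were collected separately, were left out. Tests are two-sided, with Benjamini-Hochberg adjustment over all 52788 DHS and a threshold of 0.05. SE and 95% intervals are those of limma. Medians per library were compared by exact permutation tests in scipy 1.17.1. The fits were tested on simulated data with independent noise and added changes of 2-fold or more. That test does not bear on changes as small as those described here.

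DHS named were to be those past the threshold without overlap and, with fewer than 12 in a direction, those of smallest p up to 6. In each gene list the 2 promoter DHS of smallest p were to be named; others were added after their values were seen, as was the count of DHS over 2-fold. The members, gene lists and tests were chosen with earlier results of these data known. The labels tie each replicate number to a batch, so same-numbered libraries are paired by batch; deviations from the group means of same-numbered Ikaros libraries correlated by 0.301, 0.029 and 0.119 across DHS. Alternatives were all 36 libraries, library weights, no intensity trend, only the libraries of the contrast, a replicate block, quantile normalisation, median centring, trends in GC content, width and level removed with splines, DHS of low mean level (the lowest 25%) left out, a promoter distance of 500 bp, times left out, and libraries or replicates left out. For the linear trend, all 18 Ikaros libraries took the place of all 36.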

Additional observations from a re-analysis of the deposited data

Results flagged for a closer look

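At 2 of the 14 DHS named for their Ikaros change, every batch of the Ikaros line had a higher value at 24 h than at 2 h and every batch of the Control line a lower one, a pattern found at 1177 of all 52788 DHS (2.23%), with the opposite pattern at 287 (0.544%). The Sorl1 DHS changed by 0.85 in the Ikaros line and by -0.64 in Control, a difference of 1.49 ± 0.38 (SE) that limma did not call (adjusted p = 1.00). The Pgr15l DHS changed by 1.05 in the Ikaros line and by -0.73 in Control, a difference of 1.77 ± 0.74 (SE; limma adjusted p = 1.00). Both DHS had been named for their Ikaros change, so the size of the difference is not independent of that choice.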

How the results depend on the processing

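In the Ikaros line limma called 0 DHS under all 19 alternatives, with 37 (all 36 libraries) to 2296 (without Ikaros 2h replicate 4) at an unadjusted p under 0.05. With the replicate block, which pairs libraries by batch, it called 0, with 1613 at that p. The linear trend also gave 0 under all 17 alternatives, with 76 (without 24h) to 16878 (all 18 Ikaros libraries) at an unadjusted p under 0.05. With all 18, which adds the 0 h libraries, 32.0% of DHS were under that p and the smallest limma adjusted p was 0.0561. The change of the difference between the lines gave 0 under 21 and, leaving out libraries or replicates, 0 to 7, with calls without Control 2h replicate 5 (7), without Control 2h replicate 6 (6), without replicate 5 (2) and without replicate 6 (1); with the replicate block it gave 0. The Control count of 1 became 5 with all 36 libraries and 0 with no intensity trend, with only the libraries of the contrast, with quantile normalisation, and with the replicate block alone or with trends removed, and ranged from 0 to 7 with libraries or replicates left out (7 without Control 2h replicate 5, 4 without Control 2h replicate 6). The cause was not tested. The promoter minus distal change kept its sign under 14 alternatives, from -0.01 with trends removed (exact permutation p = 0.4, against 0.1) to -0.21 without replicate 4. The 14 named DHS kept their sign under every alternative. Of gene list medians, 319 values moved by less than the SD between replicates and 22 moved further, in 9 lists. Unknown depth limits what can be said of single DHS.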
